A study of Mus musculus with 20 samples.

Results

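The Hox genes are the 39 protein-coding mouse genes of the HoxA, HoxB, HoxC and HoxD clusters, taken here by symbol from the 55487 gene identifiers of a count table of brain microglia. Of these 39 genes, 33 had at least 1 count in the 20 libraries, 4 had at least 20 counts in all, and 2 passed the filter on low counts. Levels are given in CPM, the count relative to the size of its library. Bulk RNA sequencing covered microglia, which are macrophages that live in the brain, taken from the brainstem and the cortex of the same 10 mice, with 1 library per region and mouse. The model expresses BRAF V600E, a constitutively active kinase, through an inducible Cre at the Cx3cr1 locus. The Cre was induced by 37.5 mg per kg 4-hydroxytamoxifen, given once to pregnant dams at embryonic day 9.5, per the labels' protocols, which do not describe the controls apart. The VE group held 5 mice labelled Braf VE and CX3 HET, 3 at 2 months and 2 at end-stage, a stage for which no age is given. The Ctrl group held 5 mice. All 3 Ctrl mice at 2 months were labelled Braf WT and CX3 HET. Of the 2 end-stage Ctrl mice, M1521 was Braf WT and CX3 HET and M1375 was Braf VE and CX3 WT, an allele without an altered Cx3cr1 locus. The Cre acts in any cell that expresses Cx3cr1, and every mouse but M1375 was labelled heterozygous there. How the cells were purified is not given in the sources used here.

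Hox genes encode homeodomain transcription factors that give cells along the head-to-tail axis their position. Genes at the 3′ end of a cluster, with low paralog numbers, reach furthest forward, into the hindbrain, and genes with high numbers are used further back. The forebrain, from which the cortex forms, develops without Hox expression, while neurons of the adult brainstem keep part of theirs. Hox transcripts in tissue from the 2 regions can therefore serve as a check of the region label.

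In these libraries the summed Hox counts went against the labels. The libraries are of microglia, and which cells the Hox transcripts came from was not tested. Hox transcripts were few in all libraries, and more of them lay in the cortex-labelled libraries than in the brainstem-labelled ones. The excess lay mainly in paralog groups 4 and 5. All other groups together had 62 counts in brainstem-labelled and 71 in cortex-labelled libraries. Forebrain transcription factor transcripts went the other way, as described below. The libraries are therefore called brainstem-labelled and cortex-labelled throughout. For the labelled cell type, 11 of 11 microglial genes were measured, and their sum was 48271 to 77883 CPM in brainstem-labelled and 37297 to 65619 CPM in cortex-labelled libraries. Among the 6 mice at 2 months, 5 carry one number in the record's title and another in its description, which can change the genotype of 4 mice but not the pairing of the libraries or their region labels. The title's number names each mouse here, and genotype is read from the record unless the mouse-number reading is named. Libraries held 9395203 to 21171114 counts. Where a library has 0 counts, its limit at 3 counts was 0.319 CPM in the shallowest and 0.142 CPM in the deepest one, for counting error only.

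The promoters of 3 of the 4 genes with at least 20 counts are shown because 2 of them, Hoxa5 and Hoxc4, had nearly all their counts in cortex-labelled libraries and the third, Hoxb4, had counts in every library. Each is the 300-base RefSeq window around the gene start in GRCm38.p6, on the gene's strand. For Hoxc4 the RefSeq start lies inside the GENCODE span of the gene given further on, downstream of the GENCODE start, while the other 2 windows hold the GENCODE start. The windows lie at chr6:52204538-52204837 (minus strand) for Hoxa5, chr15:103034145-103034444 (plus strand) for Hoxc4 and chr11:96318017-96318316 (plus strand) for Hoxb4. Capitals mark the longest run shared by the Hoxa5 and Hoxc4 windows, TTGCCATAATGG, and matches on either strand to AGGTCA, the half-site of retinoic acid receptors, which regulate Hox clusters in the embryo.
Hoxa5: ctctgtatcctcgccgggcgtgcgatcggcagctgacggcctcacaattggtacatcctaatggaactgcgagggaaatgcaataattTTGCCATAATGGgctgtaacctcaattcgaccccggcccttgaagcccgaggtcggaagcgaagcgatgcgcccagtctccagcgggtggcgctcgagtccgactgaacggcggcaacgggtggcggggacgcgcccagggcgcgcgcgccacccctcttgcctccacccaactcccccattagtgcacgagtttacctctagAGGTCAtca
Hoxc4: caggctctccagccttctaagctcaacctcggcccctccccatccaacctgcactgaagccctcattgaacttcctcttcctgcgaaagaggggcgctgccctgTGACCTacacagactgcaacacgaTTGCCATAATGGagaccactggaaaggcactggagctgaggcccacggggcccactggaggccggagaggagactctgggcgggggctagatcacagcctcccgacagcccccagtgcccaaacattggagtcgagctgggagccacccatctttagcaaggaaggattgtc
Hoxb4: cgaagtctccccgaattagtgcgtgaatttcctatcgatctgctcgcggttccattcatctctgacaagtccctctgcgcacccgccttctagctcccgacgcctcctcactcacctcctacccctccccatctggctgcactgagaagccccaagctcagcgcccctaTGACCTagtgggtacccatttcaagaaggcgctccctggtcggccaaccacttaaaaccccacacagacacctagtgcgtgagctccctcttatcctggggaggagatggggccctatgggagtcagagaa
The shared 12-base run was found in 2 of 32544 windows of all genes, those of Hoxa5 and Hoxc4, or 0.00615%, and not in the Hoxb4 window. Because the run was picked from these 2 windows, its presence in both was fixed in advance. A run of 12 bases is also rare by its length, so the share is no test of a shared element. AGGTCA was found once in each of the 3 windows and in 16.2% of all windows. TGATNNAT, a motif bound by PBX and HOX proteins together, and TGACAG, a motif of MEIS proteins, had no match in the 3 windows and were in 8.79% and 19.1% of all windows. Of the 39 Hox genes, 22 had a window in the table. These matches describe the letters of the windows, with no claim that a factor binds there.

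Over all 39 genes, 165 counts lay in the brainstem-labelled and 380 in the cortex-labelled libraries, or 0.964 and 2.27 CPM of unscaled totals. Scaled to TMM library sizes, the summed level was 0.428 CPM at the lowest, 0.968 CPM at the median and 1.90 CPM at the highest in the 10 brainstem-labelled libraries. In the 10 cortex-labelled libraries it was 0.817, 2.53 and 4.31 CPM. The ranges overlapped, and the brainstem-labelled library was the lower of the pair in 8 of 10 mice. The means were 0.965 ± 0.462 CPM and 2.32 ± 0.984 CPM (SD, n = 10 each), with a mean paired difference of −1.36 ± 1.20 CPM (SD over mice). Among all 16595 genes that passed the low-count filter, 18.1% were lower in the brainstem-labelled library in at least 8 of 10 mice. That share is of single genes and is not a like measure for a sum over 39 genes, most of which did not pass the filter. In bulk samples, fewer cells of a type and less RNA per cell cannot be told apart.

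The pairs that went the other way were those of VE end-stage mouse M1376, with 0.943 CPM in its brainstem-labelled and 0.817 CPM in its cortex-labelled library, and Ctrl mouse M2618 at 2 months, with 1.90 and 1.71 CPM. The brainstem-labelled library of M2618 had 14 Hox genes with a count, against 1 to 6 in the other 9. The number of Hox genes with a count was 1 to 14 with a median of 3.5 in brainstem-labelled libraries and 3 to 11 with a median of 6 in cortex-labelled libraries. Leaving out each mouse in turn gave a mean difference of −1.53 to −1.08 CPM. Without Hoxb5 the difference was −0.78 CPM and the brainstem-labelled library was still the lower in 8 of 10 mice. Without Hoxb4 and Hoxb5 it was −0.56 ± 0.71 CPM and the lower in 7 of 10 mice.

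**Figure D1:**
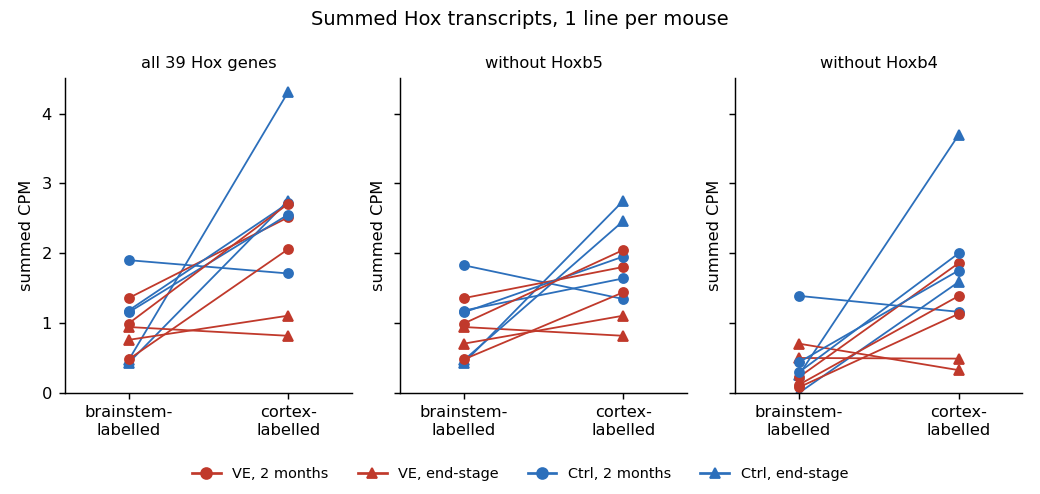
Summed CPM of the Hox genes in the brainstem-labelled (left) and cortex-labelled (right) library of each mouse, 1 line per mouse, for all 39 genes and without Hoxb5 or Hoxb4. Red is VE and blue is Ctrl by the record, circles are 2 months and triangles end-stage; with all genes, 8 of 10 lines are lower on the brainstem-labelled side.

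The difference lay in a few neighbouring paralog groups. Paralog group 5 had 2 counts in brainstem-labelled and 152 in cortex-labelled libraries, and its sum was lower in the brainstem-labelled library in 9 of 10 mice and tied at 0 in the tenth. Group 4 had 101 and 157 counts, and group 6 had 0 and 13 counts. The 7 genes of groups 4 and 5, put together after their values were seen, held 62.4% of the Hox counts of brainstem-labelled and 81.3% of those of cortex-labelled libraries. Their sum averaged 0.593 ± 0.319 CPM and 1.92 ± 1.01 CPM (SD, n = 10 each). The other 32 genes together had 62 counts in brainstem-labelled and 71 in cortex-labelled libraries, at 0.372 ± 0.384 CPM and 0.407 ± 0.303 CPM (SD, n = 10 each). For them the brainstem-labelled library was lower in 6 mice and higher in 3.

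At the 3′ end, group 1 had 2 counts in brainstem-labelled and 6 in cortex-labelled libraries, group 2 had 12 and 6, and group 3 had 5 and 16. The group 2 counts of brainstem-labelled libraries were mostly of Hoxb2, a gene of hindbrain segments, with 10 counts over 5 libraries, against 2 counts in 1 cortex-labelled library (ratio 4.85, 95% interval for counting error 1.03 to 45.5). Groups 7 to 13, used in the trunk and tail, had 0 to 11 counts per group in brainstem-labelled and 1 to 9 in cortex-labelled libraries. Group 12 had 10 and 2 counts, of which Hoxc12 had 5 and 2 and Hoxd12 had 5 and 0. By cluster, HoxA had 20 counts in brainstem-labelled and 79 in cortex-labelled libraries, HoxB had 118 and 255, HoxC 17 and 37, and HoxD 10 and 9.

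**Figure D2:**
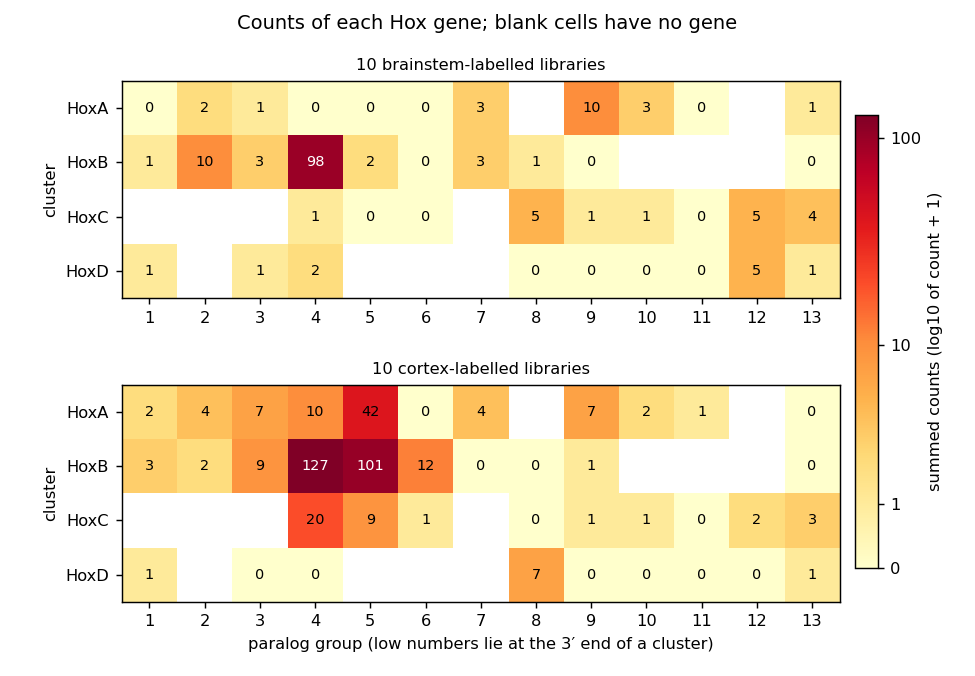
Counts of each Hox gene summed over the 10 brainstem-labelled (top) and 10 cortex-labelled (bottom) libraries, with clusters in rows and paralog groups in columns; colour is log10 of the count plus 1 and blank cells hold no gene. Groups 4 and 5 carry most counts, and group 5 has 2 counts in the top panel and 152 in the bottom one.

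Gene by gene the split was uneven. More counts lay in cortex-labelled libraries for 17 of the 33 genes with a count (51.5%), more in brainstem-labelled libraries for 12, and 4 were equal. Of all 33450 genes with a count, 48.3% had more counts in cortex-labelled libraries. Counts in cortex-labelled libraries alone were found for 9 Hox genes (27.3%), against 10.4% of all genes with a count, and counts in brainstem-labelled libraries alone for 7 (21.2%), against 11.6%. Most of these genes had very few counts, which makes 1-sided counts common. Of the 29 genes with 1 to 19 counts, 20 were seen in 1 or 2 libraries, and together they had 64 counts in brainstem-labelled and 90 in cortex-labelled libraries. Hoxb6 had 0 and 12 counts, Hoxa4 0 and 10, Hoxc5 0 and 9 and Hoxd8 0 and 7. Hoxb6, Hoxa4 and Hoxc5 were each seen in 3 cortex-labelled libraries and Hoxd8 in 1. Pooled over libraries, they were at least 4.12-, 3.44-, 3.09- and 2.41-fold lower in brainstem-labelled libraries at 3 counts over the group. These bounds cover counting error only. Without the low-count filter their edgeR adjusted p was 0.498 to 0.843. In the opposite direction, Hoxc8 had 5 and 0 counts and Hoxd12 had 5 and 0, at least 1.62-fold higher each by the same bound. They were seen in 3 and 2 brainstem-labelled libraries, with unfiltered edgeR adjusted p of 0.766 and 0.843. Hoxa9, a gene of definitive blood progenitors, had 10 and 7 counts. No count was found for Hoxa6, Hoxb13, Hoxc11, Hoxd9, Hoxd10 and Hoxd11.

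Hoxb5 (chromosome 11, 96303336 to 96306121, plus strand, GRCm38) is used from the hindbrain backwards. It had 0 counts in 8 and 1 count in 2 brainstem-labelled libraries, those of M1524 and M2618. In cortex-labelled libraries it had 0 counts at the lowest, 11 at the median and 27 at the highest. It was seen in the cortex-labelled library of every 2-month mouse, with 6 to 21 counts, and of 1 end-stage mouse, M1521, with 27. The end-stage mice M1375, M1376 and M1524 had none there. Its level averaged 0.013 ± 0.027 CPM and 0.588 ± 0.571 CPM (SD, n = 10 each), and the total of 2 against 101 counts is 52.1-fold lower (95% interval for counting error 14.05 to 436).

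In the paired edgeR quasi-likelihood test over all genes, Hoxb5 was lower in brainstem-labelled libraries, with a log2 difference of −4.60 ± 1.09 (SE, n = 10 mice) and an adjusted p of 0.0149. It was lower in 7 mice, higher in 1 and at 0 in both libraries of the other 2. With 0 or 1 count in each brainstem-labelled library it passed the low-count filter only through the cortex-labelled ones, so that its place among the tested genes already required a difference. Without that filter its edgeR adjusted p was 0.000175. Of all 16595 tested genes 14.3% passed in this comparison, 6.25% higher and 8.09% lower. Leaving out each mouse in turn kept the edgeR adjusted p at 0.00499 to 0.0437. With the 2-month mice alone the difference was −5.31 with an edgeR adjusted p of 0.0181, and with the 4 end-stage mice alone it was −2.77 with an edgeR adjusted p of 0.655. Of genes with at least 20 counts in all, 0.714% had at least 95% of them in cortex-labelled libraries, Hoxb5, Hoxa5 and Hoxc4 among them. Hoxb5 overlaps its antisense gene Hoxb5os, which had 2 counts in brainstem-labelled and 0 in cortex-labelled libraries, and the strand setting of the counting is not given in the sources used here.

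Hoxa5 (chromosome 6, 52201754 to 52204587, minus strand, GRCm38), the HoxA paralog of Hoxb5, whose promoter is printed above, had 0 counts in all 10 brainstem-labelled libraries. In cortex-labelled libraries it had 0 counts at the lowest, 2 at the median and 18 at the highest, and it was seen in 7 of 10. The largest numbers were 18 in M2629 and 10 in M2633, both Ctrl at 2 months by the record. Its 42 counts make it at least 14.4-fold lower in brainstem-labelled libraries at 3 counts over the group. It did not pass the low-count filter. In a fit without that filter, in which 5.11% of 33450 genes were called lower, edgeR gave Hoxa5 an adjusted p of 0.00925 and a fitted log2 difference of −4.78 ± 1.39 (SE), a value that depends on the prior count because 1 side is at 0. Hoxa5 lies within the span of Hoxa3 and overlaps Hoxaas3 and Gm28308, which had 5 and 0 counts in all libraries.

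Hoxc4 (chromosome 15, 103018934 to 103036852, plus strand, GRCm38), a gene of the caudal hindbrain and neck, had 1 count in the brainstem-labelled libraries, in M1521. Its 20 counts in cortex-labelled libraries came from 3 mice, with 10 in M1521 and 5 each in M1375 and M2617. The other 7 mice had none in either library. The total of 1 against 20 counts is 20.6-fold lower in brainstem-labelled libraries (95% interval for counting error 3.30 to 855). Without the low-count filter its edgeR adjusted p was 0.402.

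Hoxb4 (chromosome 11, 96318267 to 96321638, plus strand, GRCm38), which also acts in blood-forming stem cells, differed from these 3 genes. It had counts in all 20 libraries, with 1 at the lowest, 7.5 at the median and 20 at the highest in brainstem-labelled libraries. In cortex-labelled libraries these values were 6, 12 and 20. The ranges overlapped. Hoxb4 held 59.4% of the Hox counts of brainstem-labelled and 33.4% of those of cortex-labelled libraries. It averaged 0.565 ± 0.332 CPM and 0.786 ± 0.292 CPM (SD, n = 10 each) and was lower in the brainstem-labelled library in 7 of 10 mice, as were at least that many pairs for 29.5% of all tested genes. Its log2 difference of −0.60 ± 0.45 (SE) did not pass (edgeR adjusted p = 0.403). No annotated gene overlaps it.

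Per kilobase of exon, Hoxb4 was the Hox gene with the highest level in brainstem-labelled libraries, at 0.220 CPM per kb, against 0.306 CPM per kb in cortex-labelled libraries. Hoxb5 stood at 0.00457 and 0.211 CPM per kb, Hoxa5 at 0 and 0.127, and Hoxc4 at 0.00202 and 0.0579. In cortex-labelled libraries the order was therefore Hoxb4, Hoxb5, Hoxa5 and Hoxc4. The library ranges of neighbours in that order overlapped, since Hoxb5, Hoxa5 and Hoxc4 each had 0 counts in at least 3 cortex-labelled libraries.

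**Figure D3:**
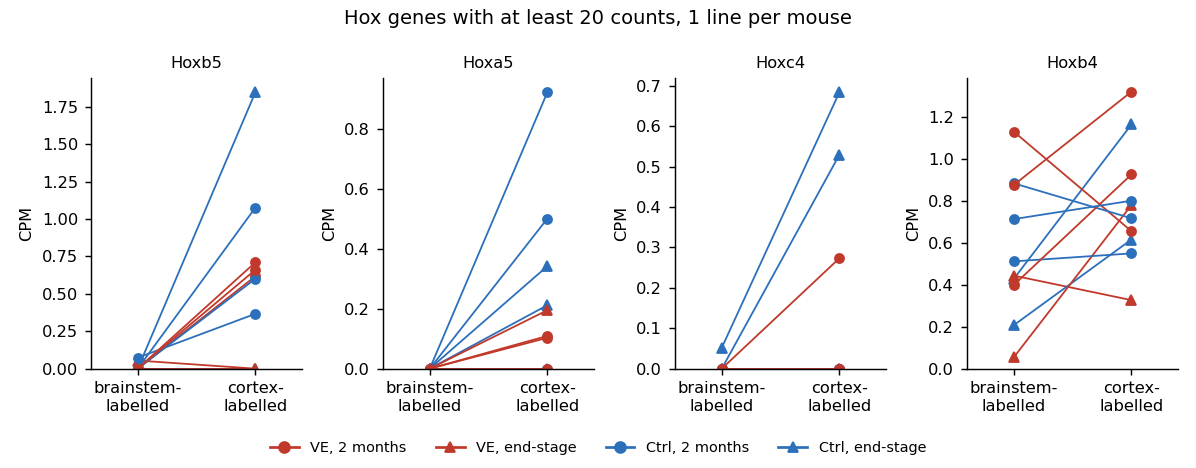
CPM of Hoxb5, Hoxa5, Hoxc4 and Hoxb4 in the brainstem-labelled (left) and cortex-labelled (right) library of each mouse, 1 line per mouse, each panel with its own scale. Red is VE and blue is Ctrl by the record, circles are 2 months and triangles end-stage; Hoxb5 and Hoxa5 lie at or near 0 on the brainstem-labelled side, while the lines of Hoxb4 cross.

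By genotype, the summed Hox level in the 5 VE mice was 0.479 to 1.36 CPM in brainstem-labelled and 0.817 to 2.71 CPM in cortex-labelled libraries, with means of 0.906 ± 0.322 CPM and 1.84 ± 0.843 CPM (SD). In the 5 Ctrl mice it was 0.428 to 1.90 CPM and 1.71 to 4.31 CPM, with means of 1.03 ± 0.607 CPM and 2.81 ± 0.940 CPM (SD). The brainstem-labelled library was the lower in 4 of 5 mice of either genotype. Read by mouse number, it was the lower in 3 of 5 VE mice and in 5 of 5 Ctrl mice. At end-stage the sums were 0.758 and 0.943 CPM in brainstem-labelled and 1.11 and 0.817 CPM in cortex-labelled libraries of the VE mice M1524 and M1376. In the end-stage Ctrl mice M1375 and M1521 they were 0.428 and 0.466 CPM and 2.75 and 4.31 CPM. Without Hoxb4, the end-stage VE mice M1524 and M1376 had 0.704 and 0.499 CPM in brainstem-labelled and 0.325 and 0.490 CPM in cortex-labelled libraries, with 9 counts in either library of M1376.

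At 2 months the sum averaged 0.942 CPM in brainstem-labelled and 2.43 CPM in cortex-labelled libraries of 3 VE mice, and 1.41 and 2.33 CPM in those of 3 Ctrl mice. All 6 of these mice had the lower sum of groups 4 and 5 in the brainstem-labelled library, under either reading of genotype, since the pairs do not change. Over both stages that sum was lower there in 9 of 10 mice, M1376 being the exception.

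The region difference of Hoxb5 did not pass within either genotype. It was −3.89 ± 1.64 in VE mice (edgeR adjusted p = 0.193) and −5.19 ± 1.59 in Ctrl mice (edgeR adjusted p = 0.102) on the log2 scale (SE, n = 5 mice each). In these comparisons 0 of 2 tested Hox genes passed, against 5.54% and 3.36% of all tested genes. The difference between genotypes was 1.296 ± 2.905 (edgeR adjusted p = 0.976) and that between stages, end-stage minus 2 months, was 2.50 ± 3.50 (edgeR adjusted p = 0.882). Both errors are wide enough to leave large differences of either sign possible, and both signs rested on 1 mouse. Without M1524 the genotype difference was −0.77 and the stage difference −0.67, without M1521 the stage difference was 7.02, and by mouse number the genotype difference was 3.53 (edgeR adjusted p = 0.720). For Hoxb4 the difference between genotypes was −0.11 ± 0.92 (edgeR adjusted p = 0.996) and that between stages −1.27 ± 0.91 (edgeR adjusted p = 0.746). Leaving out each mouse in turn gave −0.52 to 0.41 for the genotype difference of Hoxb4. These interactions called 0.0% of all genes with edgeR, with 796 genes for genotype and 1305 for stage at an unadjusted p under 0.05, and 1 and 34 genes by DESeq2.

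Between VE and Ctrl mice within a region, neither gene passed the test. In cortex-labelled libraries Hoxb5 stood at 0.398 ± 0.364 CPM in VE and 0.778 ± 0.714 CPM in Ctrl mice (SD, n = 5 each), a log2 difference of −1.57 ± 1.32 (edgeR adjusted p = 0.973). Hoxb4 stood at 0.802 ± 0.365 CPM in VE and 0.769 ± 0.241 CPM in Ctrl mice there (log2 difference 0.04 ± 0.53, edgeR adjusted p = 0.998). In brainstem-labelled libraries Hoxb4 stood at 0.581 ± 0.424 CPM in VE and 0.549 ± 0.261 CPM in Ctrl mice (−0.01 ± 0.54, edgeR adjusted p = 1). Hoxa5 had 7 counts in the cortex-labelled libraries of VE mice and 35 in those of Ctrl mice, but 23 and 19 by mouse number. Genotype called 0.00603% of all genes in brainstem-labelled and 0.0% in cortex-labelled libraries with edgeR by the record, but 141 and 1305 genes by mouse number. By that reading Hoxb5 differed by −1.47 in cortex-labelled libraries (edgeR adjusted p = 0.548). By the record, in the cortex-labelled comparison 681 genes were at an unadjusted p under 0.05, and DESeq2 called 8.

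The rest of the Hox clusters was close to silent. Of 46 other annotated genes inside the 4 clusters, among them microRNA and antisense genes, 14 had a count. Gm11539, a processed pseudogene in HoxB, held most of them, with 3.11 ± 0.703 CPM in brainstem-labelled and 3.66 ± 1.39 CPM in cortex-labelled libraries (SD, n = 10 each; edgeR adjusted p = 0.581). As a pseudogene it can share reads with its parent gene. The other 45 had 16 and 17 counts together. Of the 8 nearest protein-coding genes flanking the clusters, 4 were measured and 0 differed. Skap2, beside HoxA, stood at 159 ± 19.9 and 171 ± 17.2 CPM (edgeR adjusted p = 0.346), and Mtx2, beside HoxD, at 39.5 ± 10.0 and 40.3 ± 9.24 CPM (edgeR adjusted p = 0.865). Calcoco1 and Smug1, beside HoxC, had edgeR adjusted p-values of 0.122 and 0.683.

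TALE proteins (PBX, MEIS and PKNOX) bind DNA together with HOX proteins. Of 9 such genes, 7 were measured, 1 was higher and 1 lower in brainstem-labelled libraries, and their median log2 difference was 0.01, against −0.02 over all tested genes. These 2 of 7 stand beside 14.3% of all tested genes. Pbx2 was higher, at 37.3 ± 5.18 against 30.1 ± 3.19 CPM (SD, n = 10 each; log2 difference 0.31 ± 0.10, edgeR adjusted p = 0.0458). Meis3, which acts in hindbrain patterning in the frog, was lower, at 51.3 ± 16.2 against 63.9 ± 15.8 CPM (−0.34 ± 0.10, edgeR adjusted p = 0.0352). Pknox1 was at 50.8 ± 11.8 and 63.5 ± 19.7 CPM and did not pass (edgeR adjusted p = 0.0508).

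Polycomb proteins keep Hox clusters silent and Trithorax proteins keep them active. All 22 listed genes were measured, 3 were higher and 1 was lower, with a median of 0.13. With 14.3% of all tested genes called, 4 of 22 is close to the background and is no result about these genes as a list. Bmi1, a subunit of Polycomb complex PRC1, was higher in 10 of 10 mice, at 40.5 ± 11.4 CPM in brainstem-labelled and 27.9 ± 10.2 CPM in cortex-labelled libraries (0.55 ± 0.11, edgeR adjusted p = 0.00559). The PRC1 genes Phc2 (0.31 ± 0.07, edgeR adjusted p = 0.00805) and Rnf2 (0.28 ± 0.08, edgeR adjusted p = 0.0302) were also higher. Eed, a core subunit of PRC2, was lower (−0.27 ± 0.08, edgeR adjusted p = 0.0401). The methyltransferase Ezh2 stood at 5.02 ± 1.87 and 7.65 ± 3.29 CPM and did not pass (edgeR adjusted p = 0.0574). Within VE mice 0 of the 22 passed, against 5.54% of all tested genes, and within Ctrl mice 1 did, against 3.36%.

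Retinoic acid and Cdx factors switch Hox genes on in the embryo. Of 21 genes of this list, 9 were measured, 2 were higher and 2 lower, with a median of −0.17, beside 6.25% higher and 8.09% lower among all tested genes. The retinoid X receptor genes Rxra (0.52 ± 0.12, edgeR adjusted p = 0.0104) and Rxrb (0.35 ± 0.09, edgeR adjusted p = 0.0199) were higher in brainstem-labelled libraries. Rarg, a retinoic acid receptor gene, was lower in 10 of 10 mice, at 0.343 ± 0.218 against 3.10 ± 1.79 CPM (SD, n = 10 each; −3.18 ± 0.48, edgeR adjusted p = 0.000784). Aldh1a1, an enzyme that makes retinoic acid, had 2 counts in brainstem-labelled and 88 in cortex-labelled libraries (−4.90 ± 0.85, edgeR adjusted p = 0.00318). Like Hoxb5, it passed the low-count filter only through the cortex-labelled libraries, so that its place among the tested genes already required a difference. Cdx1, Cdx2 and Cdx4 together were close to 0 in both, with 0, 4 and 0 counts in brainstem-labelled and 3, 1 and 1 in cortex-labelled libraries. In Hoxb4, Hoxa5 and Hoxc4 the printed windows each hold 1 match to AGGTCA.

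Markers of region outside the Hox clusters were set beside these values. The 22 brainstem genes had 38 counts in brainstem-labelled and 136 in cortex-labelled libraries, at 0 to 1.17 CPM and 0.305 to 1.84 CPM, and 0 of them passed the low-count filter. Their sum was lower in the brainstem-labelled library in 9 of 10 mice, M2618 being the exception. Of all tested genes 9.18% were lower there in at least 9 mice, a share of single genes and not of sums. En2, a midbrain and hindbrain factor, had 0 counts in brainstem-labelled libraries and 19 over 4 cortex-labelled ones. Slc6a4, the serotonin transporter, had 0 counts in brainstem-labelled libraries and 17 over 3 cortex-labelled ones. Its highest level there was 0.717 CPM and its median 0. Lhx1, a factor of hindbrain interneurons, went the other way with 10 counts in 2 brainstem-labelled libraries and 1 in cortex-labelled ones. Phox2a and Irx3 were also at 0 in brainstem-labelled libraries, Tph2 in cortex-labelled libraries, and Fev, Lhx5 and Tlx3 in both.

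The 14 forebrain and cortex genes had 1012 counts in brainstem-labelled and 529 in cortex-labelled libraries, at 3.22 to 10.9 CPM and 1.37 to 6.39 CPM, with the brainstem-labelled library the higher in 8 of 10 mice. Most counts were of Cux2, an upper-layer factor, with 798 and 357 counts. Of the 14 genes 3 were measured and 0 passed (Cux2 log2 difference 1.27 ± 0.48, edgeR adjusted p = 0.0942). Tbr1, a deep-layer factor, had 9 counts over 3 brainstem-labelled libraries and 0 in cortex-labelled ones. Fezf2 had 13 over 4 and 0, and Emx1 had 1 and 0. Emx2 and Otx1 were at 0 in both. Lamp5, with 13 and 34 counts, and Lhx2, with 9 and 16, had more counts in cortex-labelled libraries, those of Lhx2 all in 1 library. The brainstem-labelled library of M2618 was the highest of all 20 for forebrain genes, at 10.9 CPM, and the highest of the 10 brainstem-labelled ones for Hox genes and for the other brainstem genes.

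**Figure D4:**
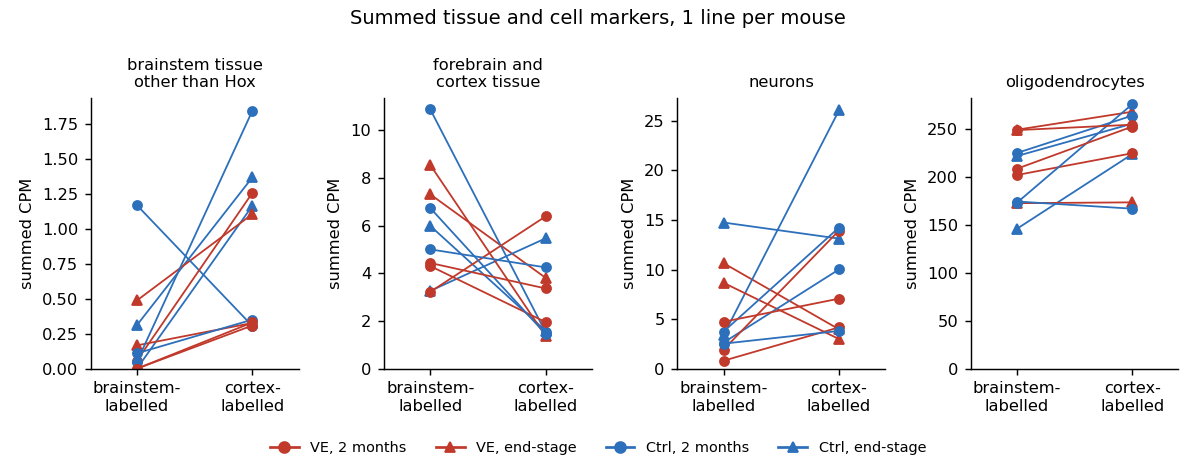
Summed CPM of brainstem genes outside the Hox clusters, forebrain and cortex genes, neuronal genes and oligodendrocyte genes in the brainstem-labelled (left) and cortex-labelled (right) library of each mouse, 1 line per mouse, each panel with its own scale. Red is VE and blue is Ctrl by the record, circles are 2 months and triangles end-stage; brainstem genes are lower on the brainstem-labelled side in 9 of 10 mice and forebrain genes higher in 8 of 10.

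Transcripts of other brain cells also differed between the labels, in both directions, beside 6.25% of all tested genes called higher and 8.09% lower. Oligodendrocyte genes summed to 146 to 249 CPM in brainstem-labelled and 167 to 276 CPM in cortex-labelled libraries, lower in 9 of 10 mice. Of 7 measured members 5 were lower, among them Ermn, with 11 and 73 counts. Ermn passed the low-count filter only through the cortex-labelled libraries. Mobp, a myelin protein gene, stood at 0.530 ± 0.804 against 3.18 ± 2.01 CPM (SD, n = 10 each; log2 difference −3.13 ± 0.56, edgeR adjusted p = 0.00213). Cldn11 was at 0 in brainstem-labelled libraries and at 42 counts in cortex-labelled ones. Neuronal genes summed to 0.798 to 14.7 CPM in brainstem-labelled and 2.99 to 26.1 CPM in cortex-labelled libraries, lower in 7 of 10 mice. Of 9 measured neuronal genes 2 were lower, the neurofilament genes Nefl and Nefh, which mark neurons with long axons. Both passed the low-count filter only through the cortex-labelled libraries, Nefl with 30 and 180 counts and Nefh with 1 and 47. Of 5 measured astrocyte genes, Gfap (−4.41 ± 0.64, edgeR adjusted p = 0.000576) and Aldh1l1 (−2.30 ± 0.50, edgeR adjusted p = 0.00699) were lower and Slc1a3 (0.43 ± 0.07, edgeR adjusted p = 0.00163) was higher, and Agt was at 0 in brainstem-labelled libraries. Astrocyte genes summed to 192 to 1509 CPM and 129 to 1134 CPM, higher in 10 of 10 mice and nearly all Slc1a3. Endothelial and pericyte genes summed to 50.9 to 116 CPM in brainstem-labelled and 19.5 to 63.5 CPM in cortex-labelled libraries, also higher in 10 of 10 mice. Most of that sum was Pecam1, with 11117 and 4618 counts, and 4 of the 7 listed genes had more counts in cortex-labelled libraries. Of their 4 measured genes Pecam1, an adhesion molecule gene, was higher (1.44 ± 0.22, edgeR adjusted p = 0.00090). Flt1 had 160 and 1149 counts and did not pass (−1.88 ± 0.83, edgeR adjusted p = 0.149). Cldn5, a tight junction gene of brain endothelium, had 1 and 8 counts. Of 4 measured oligodendrocyte precursor genes 0 passed, and the list was lower in 8 of 10 mice. Of the microglial genes 6 of 11 were higher, P2ry12 among them (1.11 ± 0.20, edgeR adjusted p = 0.00215), and 0 lower. The part of these cell types in the Hox difference was not tested.

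Blood-forming cells use Hox genes too, so their markers were counted, again beside 6.25% of all tested genes called higher and 8.09% lower. Of 6 progenitor genes 3 were measured and 2 were lower in brainstem-labelled libraries, Cd34 (−1.06 ± 0.09, edgeR adjusted p = 1.85e-05) and Flt3 (−1.06 ± 0.33, edgeR adjusted p = 0.0461). The list summed to 220 to 524 CPM and 389 to 1068 CPM, nearly all of it Cd34. The defining genes Kit and Mpo were near 0, with 2 and 1 counts in brainstem-labelled and 4 and 0 in cortex-labelled libraries, and Mecom had 3 and 1. Neutrophil genes summed to 0 to 17.4 CPM in brainstem-labelled and 0 to 0.264 CPM in cortex-labelled libraries, and 1 of 3 measured, Ngp, was higher. Its 186 counts came from 2 brainstem-labelled libraries, with 0 in both libraries of the other 8 mice. Ngp thus passed the low-count filter only through those 2 libraries. M2633 and M2624 held 318 and 76 of the 405 neutrophil counts. Of 6 measured monocyte genes Ccr2 was higher and 0 were lower. The list summed the other way, with 5569 counts in brainstem-labelled and 13203 in cortex-labelled libraries. Its sum was lower in the brainstem-labelled library in 7 mice and higher in 3. Most counts were of Ms4a6c, with 3831 and 8376, and of Plac8, with 997 and 4444. Neither passed (edgeR adjusted p = 0.0807 and 0.864), and Plac8 was lower in 5 mice and higher in 5. Border macrophage genes summed to 1.41 to 35.6 CPM and 2.79 to 232 CPM, with 1 of 7, Siglec1, lower. Their part in the Hox counts was not tested.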

How the data were processed

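For the 20 libraries, cDNA was made with the SMART-Seq v4 kit (12 amplification cycles, then 8 library PCR cycles), per the labels' protocols. The deposited values are raw counts by gene in 1 table, not normalized. The submitters' processing notes name FastQC, Subread, edgeR and mm10. Which annotation and strand setting were used, and how multi-mapping reads were treated, is not given in the sources used here. Of 55487 identifiers, 55394 were matched to GENCODE M21 symbols on GRCm38, and the 93 others held 0.0012% of counts. The Hox genes and the 18 gene lists were chosen with earlier results of these data known.

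Tests used edgeR 4.0.16 (R 4.3.3) on the counts of 16595 genes kept by filterByExpr over the 8 groups, with TMM scaling, quasi-likelihood F tests, mouse as a block and Benjamini-Hochberg adjustment at 0.05 over all genes tested. Standard errors are the log2 difference over the root of F. CPM values use TMM-scaled library sizes. Libraries of a mouse share an animal per the labels, and the correlation of their deviations from the group means was 0.101 to 0.344. Ratios of counts have exact binomial 95% intervals, which cover counting error only. Hox genes with at least 20 counts were described singly. Of other lists, up to 4 genes with the highest mean CPM, genes that passed and markers at or near 0 were named; where a low-count gene was named beyond that, it was chosen after its values were seen. Scaling, tool (DESeq2 1.42.0), filter, block, genotype reading and left-out mice were varied. The fits were tested on simulated data. Some members of the marker lists are counted in the sums but are not reported here singly.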

Additional observations from a re-analysis of the deposited data

Results flagged for a closer look

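Of 26 groups of 4 to 10 libraries checked for a library far from the rest, 5 were set apart. In each of the 5, only 1 library had counts and the rest had 0, which the check sets apart at any value. The usual chance rate of about 1 in 20 groups does not hold for counts this near 0, so no excess can be read from it. Hoxb5 stood at 0.0542 CPM in the brainstem-labelled library of VE mouse M1524 and at 0.0731 CPM in that of Ctrl mouse M2618, 1 count each, with 0 counts in the other brainstem-labelled libraries of their genotype. Hoxc4 stood at 0.0518 CPM, also 1 count, in the brainstem-labelled library of Ctrl mouse M1521, which set it apart among the 5 Ctrl mice and among all 10. Hoxc4 stood at 0.273 CPM, 5 counts, in the cortex-labelled library of VE mouse M2617, with 0 counts in those of the other 4 VE mice.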

How the results depend on the processing

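Genes called for region numbered 2380 over all mice, 1182 in 2-month and 444 in end-stage mice, and 1653 to 2596 without each mouse; Hox genes called numbered 1, but 2 without a low-count filter (Hoxb5 and Hoxa5) and 0 in end-stage mice. Region in VE mice called 919 genes, 1887 by DESeq2, 1719 unfiltered, 441 with no replicate block, 2159 by mouse number and 308 to 1021 without each mouse. Region in Ctrl mice called 557, 1471 by DESeq2, 1593 unfiltered, 136 with no replicate block, 324 by mouse number and 85 to 573 without each mouse. There, 1 Hox gene was called unfiltered, Hoxb5 (edgeR adjusted p = 0.0137). Region by genotype called 0 genes, 1 by DESeq2, 114 unfiltered and 38 by mouse number. Region by stage called 0, 34 by DESeq2, 293 unfiltered and 0 to 3 without each mouse. Genotype in brainstem-labelled libraries called 1, 0 by DESeq2, 59 unfiltered, 141 by mouse number and 0 to 1 without each mouse. Genotype in cortex-labelled libraries called 0, 8 by DESeq2, 142 unfiltered and 1305 by mouse number. The cause of these changes was not tested, and the stage and left-out fits also held fewer mice.

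The mean Hox difference was −1.36 CPM with the TMM and DESeq2 scalings, −1.38 CPM with raw library totals, −1.53 to −1.08 CPM without each mouse and −1.14, −0.78 and −0.56 CPM without Hoxb4, Hoxb5 and both. Without the replicate block Hoxb5 stood at −4.61 for region in all mice (edgeR adjusted p = 0.00684) and kept its call. Leaving out Hoxb4, alone or with Hoxb5, was added after the data were seen. With counts this low, differences in most Hox genes were not detectable at this depth.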
